A study of Mus musculus with 123 samples.

Results

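Signalling by bone morphogenetic proteins (BMPs) was followed through 9 genes, picked by name from the 29022 gene rows of the UMI table, across single mouse embryos in 16 groups (48 Ctrl, 48 KO and 27 MWT embryos). The genes were the ligand Bmp4, the receptors Bmpr1a and Bmpr2, the signal-transducing Smad1 and Smad5, the inhibitory Smad6, and the target genes Id1, Id2 and Id3. All 9 were present in the table. A BMP ligand brings type I and type II receptors together, the receptors phosphorylate SMAD1 and SMAD5, and these enter the nucleus with SMAD4 to switch on target genes. The Id genes are among the best known of those targets. Their proteins lack a DNA-binding region and hold E proteins, a class of basic helix-loop-helix factors, away from DNA. SMAD6 is itself induced by the pathway and dampens it. In the mouse blastocyst Bmp4 is known as a product of the inner cell mass (ICM), and Id2 is known as an early marker of the outer layer, the trophectoderm.

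Each library held the polyA RNA of 1 embryo at the morula stage (E2.75) or of 1 ICM at the early (E3.75) or late (E4.5) blastocyst stage. The embryos came from superovulated females of 2 lines, and the labels give B6C3F1 as the background of every sample. KO embryos of the Oct4 line lacked the maternal and zygotic products of Pou5f1, the gene for Oct4, through a floxed allele deleted in the oocyte by Zp3-Cre and an mKO2-labelled knockout allele from the father. KO embryos of the Sox2 line lacked Sox2 in the same way, with an EGFP-labelled paternal knockout allele. Ctrl embryos had the same deleted maternal allele and 1 intact paternal allele, so they also lacked the maternal product. The mothers of MWT embryos had both copies of the gene. Morulae were processed whole, while all ICM donors were taken at E2.5, grown in KSOM medium with the MEK inhibitor PD0325901 at 1 µM, and stripped of trophectoderm by immunosurgery. Stage, culture with the inhibitor and immunosurgery thus change together from morula to ICM, and no morula to ICM comparison can tell their parts apart. There were 8 embryos in each Ctrl and KO group. The MWT groups held 7 Oct4 morulae, 5 Oct4 early ICMs, 8 Oct4 late ICMs and 7 Sox2 early ICMs. For the Oct4 MWT ICMs the sample titles were used for the stage, since another label names an earlier one.

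The libraries held 525755 to 1344035 UMIs each, where a UMI (unique molecular identifier) marks 1 captured transcript. Levels are given as CPM, the UMIs of a gene scaled to one library total. Pou5f1 was at 13.4 to 93.6 CPM in the Oct4 Ctrl embryos and at 0 to 4.73 CPM in the KO embryos. Sox2 was at 2.91 to 299 CPM in the Sox2 Ctrl embryos and at 0 to 36.4 CPM in the KO embryos. The floxed stretch of Sox2 ends inside its 3′ untranslated region and the libraries are enriched for 3′ ends, so a remaining Sox2 UMI does not test the deletion. Of 10 epiblast markers, 8 fell in Oct4 KO early ICMs, 9 in Oct4 KO late ICMs and 7 in the Sox2 KO ICMs of each stage, against 6.11%, 8.85%, 1.69% and 3.61% of all genes called lower. A level in a whole embryo or ICM cannot tell fewer cells of a type from less RNA per cell.

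The 3 members called in the KO ICMs of both lines were Bmp4 (ENSMUSG00000021835, chr14:46383520-46390669, minus strand, mm10), Id2 (ENSMUSG00000020644, chr12:25093799-25097140, minus strand) and Id3 (ENSMUSG00000007872, chr4:136143497-136145755, plus strand). The others were Bmpr1a (chr14:34410734-34503341), Bmpr2 (chr1:59763400-59879014), Smad1 (chr8:79338395-79399518), Smad5 (chr13:56703010-56742377), Smad6 (chr9:63953076-64022059) and Id1 (chr2:152736251-152737410). All 9 are protein-coding. RefSeq gave a promoter for 8 of the 9 members on GRCm38.p6, the assembly of mm10, and Id1 had no entry. The 250 bases before the RefSeq start of these 3 genes are printed 5′ to 3′ on the gene's own strand, because these genes were called in both lines. Capitals mark the GC-rich SMAD element GGCGCC. The stretches are chr14:46390670-46390919 for Bmp4, chr12:25096093-25096342 for Id2 and chr4:136143572-136143821 for Id3. Those of Id2 and Id3 lie inside the wider gene span of the deposited table.
Bmp4: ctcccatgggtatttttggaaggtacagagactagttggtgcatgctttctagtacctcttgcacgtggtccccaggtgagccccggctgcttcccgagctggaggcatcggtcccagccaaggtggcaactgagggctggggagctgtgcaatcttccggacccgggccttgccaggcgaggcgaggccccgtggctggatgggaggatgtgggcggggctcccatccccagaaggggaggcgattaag
Id2: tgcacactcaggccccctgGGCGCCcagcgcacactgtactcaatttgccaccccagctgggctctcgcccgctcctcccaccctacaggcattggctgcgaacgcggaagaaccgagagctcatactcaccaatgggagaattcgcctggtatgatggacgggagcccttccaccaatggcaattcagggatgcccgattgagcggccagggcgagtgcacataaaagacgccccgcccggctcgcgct
Id3: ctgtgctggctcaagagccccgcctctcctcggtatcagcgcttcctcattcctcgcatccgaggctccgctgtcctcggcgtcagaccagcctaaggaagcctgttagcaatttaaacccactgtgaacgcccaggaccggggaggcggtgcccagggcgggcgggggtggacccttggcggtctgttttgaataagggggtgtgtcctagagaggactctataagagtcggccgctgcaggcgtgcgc
The Id2 stretch held GGCGCC once, 231 bases before the start, against 9.59% of 32841 RefSeq promoters of the same length. The stretches of Bmp4 and Id3 did not hold these letters, while those of Bmpr1a and Bmpr2, called in no KO comparison, and 1 of 3 Smad5 stretches did. The palindromic SMAD element GTCTAGAC, the octamer ATGCAAAT and the SOX core CATTGTT, read on both strands, were in none of the 3 stretches. They were in 0.167%, 1.6% and 3.29% of the same promoters. None of the 4 motifs overlapped another in these stretches.

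KO embryos were compared with Ctrl embryos of their line and stage by edgeR's quasi-likelihood test over 14053 genes, and a gene counts as called where its Benjamini-Hochberg adjusted p was under 0.05 and its level moved by 1 or more on the log2 scale in either direction. Of the 9 members 8 could be tested, and Smad6 had too few UMIs. In morulae 0 of 8 members were called in the Oct4 line, where 0.804% of all genes were, and 0 of 8 in the Sox2 line, where 0.00712% were. At an unadjusted p under 0.05 there was 1 member in each line, and DESeq2 and limma also called 0. In Oct4 KO early ICMs Bmp4 and Id3 fell, 2 of 8 members against 6.11% of all genes called lower. In Oct4 KO late ICMs Bmp4, Smad1, Smad5 and Id3 fell, 4 of 8 against 8.85%, and Id2 rose, 1 of 8 against 9.25%. In Sox2 KO ICMs of both stages Bmp4 and Id3 fell and Id2 rose. That is 2 of 8 lower against 1.69% of all genes at the early stage and 3.61% at the late stage, and 1 of 8 higher against 1.57% and 3.34%. The members were chosen with earlier results of these data known, so the counts are a description.

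**Figure D1:**
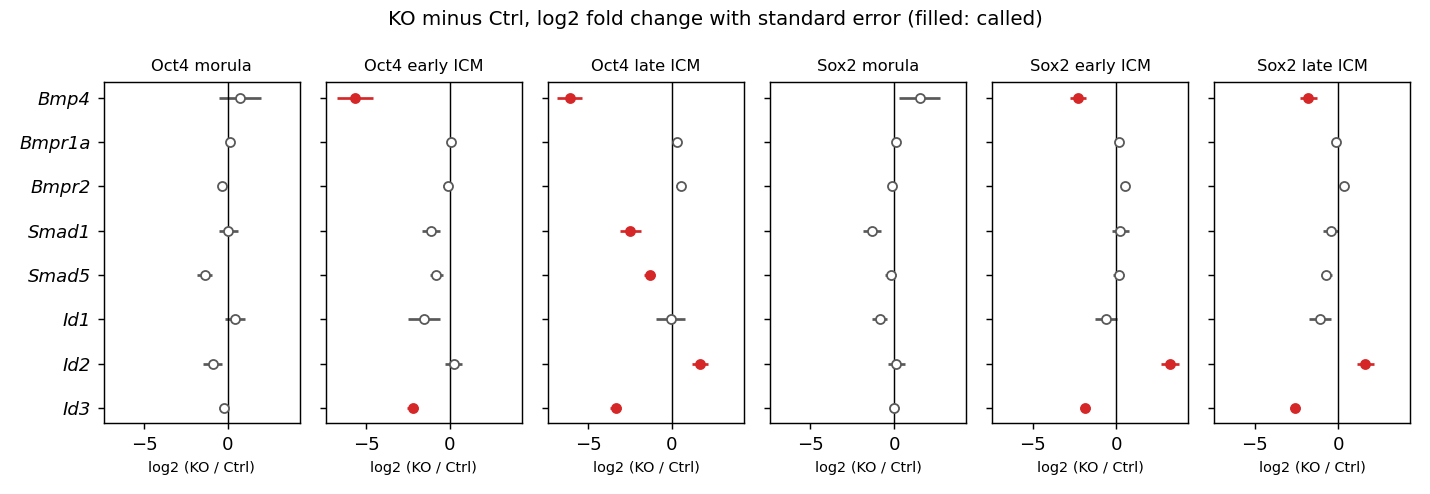
Log2 fold change of KO over Ctrl (x axis) with its standard error for the 8 tested members (rows) in the 6 comparisons (panels). Filled red points were called. Bmp4 and Id3 lie left of 0 in all 4 ICM panels, Id2 was called higher in 3 of them, and the receptors Bmpr1a and Bmpr2 were called in no panel.

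Bmp4, the ligand, was scarce in morulae and higher in Ctrl ICMs, a step that also holds the culture with inhibitor and immunosurgery. In Ctrl morulae it gave 2 UMIs over the 8 Oct4 embryos and 1 UMI over the 8 Sox2 embryos. In Ctrl early ICMs its level ran from 0 through a median of 4.18 to 18.1 CPM in the Oct4 line and from 8.56 through 31.2 to 68.9 CPM in the Sox2 line. Scaled to library totals, the UMIs of early ICMs came to 2946% of those of morulae in the Oct4 line (exact Poisson 95% interval 775% to 24979%, counting error only). In the Sox2 line all 8 early ICMs lay above all 8 morulae, as did 10% of all genes, and their UMIs came to 28558% of those of morulae (95% interval 5077% to 1132639%, edgeR adjusted p = 4.85e-13). Bmp4 rose again to the late stage in Oct4 Ctrl ICMs, to 6.96, 19.7 and 90.9 CPM (lowest, median, highest), a log2 fold change of 2.25 ± 0.48 (SE, n = 8 and 8, edgeR adjusted p = 8.88e-05). In Sox2 Ctrl late ICMs it was at 6.45, 20 and 48.3 CPM, a log2 difference from the early stage of -0.47 ± 0.42 that did not pass the test.

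In Oct4 KO early ICMs Bmp4 had 0 UMIs in all 8 embryos, against 51 UMIs over the 8 Ctrl ICMs, of which 7 had at least 1. Set against a floor of 3 UMIs over the group, Bmp4 was at least 17.4-fold lower in the KO (edgeR adjusted p = 2.32e-05). The exact Poisson 95% interval of the ratio, which also counts the error of the Ctrl UMIs, reached 7.35% of the Ctrl level, a weaker limit. On the embryos with shared replicate numbers alone, Bmp4 lost its call, with a log2 value of -3.76 (adjusted p = 0.530) without and -3.63 (adjusted p = 0.771) with a replicate block. In Oct4 KO late ICMs 2 embryos had 1 UMI each and 6 had none, and every KO embryo lay below every Ctrl embryo. The KO level was 1.02% of the Ctrl level (95% interval 0.123% to 3.8%, counting error only, edgeR adjusted p = 2.49e-10). In the Sox2 KO Bmp4 fell as well. Early ICMs were at 0, 4.86 and 13.9 CPM (lowest, median, highest), a log2 fold change of -2.3 ± 0.47 (adjusted p = 4.37e-04), and 5 of 8 KO embryos lay below all Ctrl embryos. Late ICMs were at 0, 6 and 13.9 CPM, a log2 fold change of -1.78 ± 0.49 (adjusted p = 6.63e-03), again with 5 of 8 below all Ctrl embryos. The KO effect on Bmp4 was larger in the Oct4 line than in the Sox2 line at the late stage, by -4.34 ± 1.02 on the log2 scale (interaction, adjusted p = 2.45e-03, against 6.3% of all genes called). On counts thinned to the lowest total this difference was -3.36 with an adjusted p of 0.0504, and over all alternatives it ran from -4.49 (DESeq2) to -1.24 (limma on the rlog values, which shrink low counts). At the early stage the same difference was -3.38 ± 1.25 (adjusted p = 0.0761). Both values rest on Oct4 KO groups with 2 and 0 UMIs and depend on the prior count of the fit. Bmp4 overlaps Gm15217 and Gm15222 on the opposite strand, and whether the counting used strand is not given in the sources used here.

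**Figure D2:**
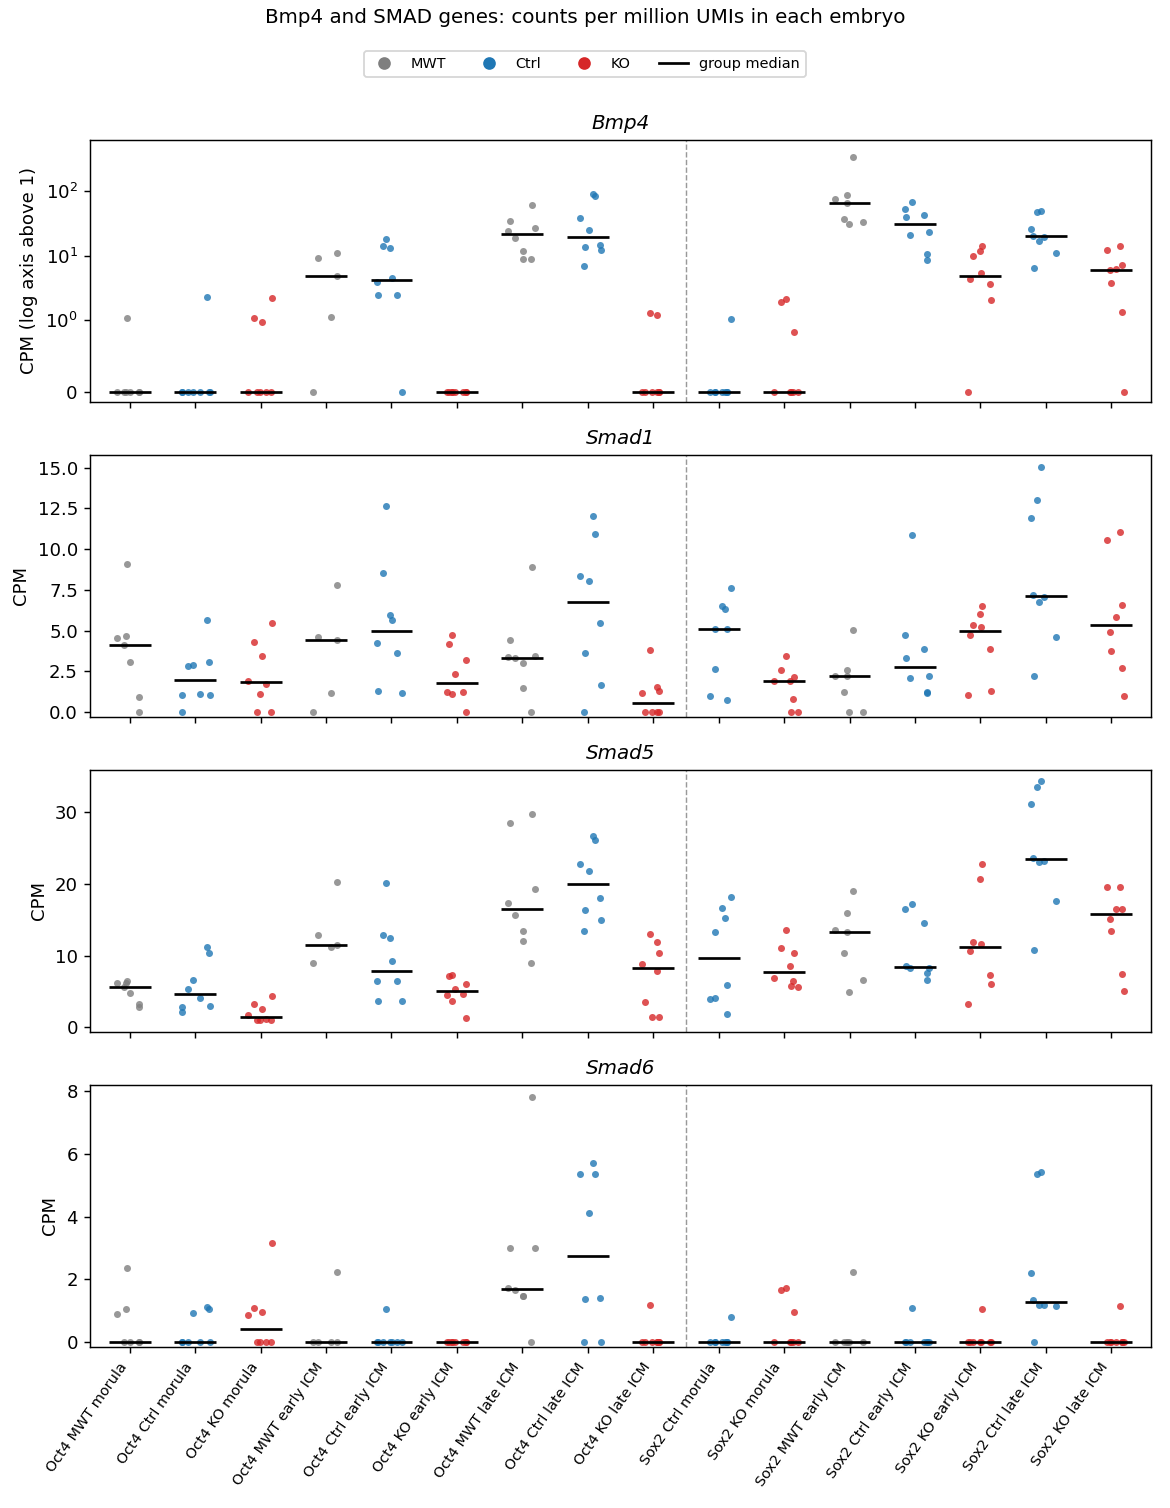
CPM (y axis) of Bmp4, Smad1, Smad5 and Smad6 in each embryo, by line, genotype and stage (x axis). Points are embryos, bars are group medians, and the Bmp4 axis is logarithmic above 1 CPM. Bmp4 is near 0 in all morulae and in the Oct4 KO ICMs, and Smad6 is seen mainly in Ctrl and MWT late ICMs.

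The receptors were called in no KO comparison. Bmpr1a, the type I receptor, had group medians of 52.6 to 77.9 CPM over the 16 groups, with single embryos between 26.7 and 115 CPM. Bmpr2, the type II receptor, had group medians of 13.9 to 42.8 CPM, with single embryos between 6.91 and 60.2 CPM. The 95% intervals of the KO effect in ICMs ran from -0.48 to 0.66 on the log2 scale for Bmpr1a. For Bmpr2 they ran from -0.62 to 1.09, so a change of that size could have gone unseen. In Sox2 KO early ICMs Bmpr2 had a log2 difference of 0.53 ± 0.23 (interval 0.07 to 0.99, adjusted p = 0.162), with 7 of 8 KO embryos above the Ctrl median. In the Oct4 Ctrl embryos Bmpr1a was lower in early ICMs than in morulae by a log2 difference of -0.60 ± 0.17 (adjusted p = 1.93e-03), and Bmpr2 was lower in late than in early ICMs by -0.74 ± 0.27 (adjusted p = 0.026). Both differences were under the fold minimum. Bmpr1a overlaps Gm17110 on the opposite strand and Bmpr2 overlaps Gm38125 on the same strand. How reads in such overlaps were counted is not given in the sources used here.

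Smad1 and Smad5, which carry the signal to the nucleus, fell in Oct4 KO late ICMs. Smad5 rose from early to late ICMs in the Ctrl embryos of each line, with a log2 fold change of 1.14 ± 0.33 in the Oct4 line (adjusted p = 4.90e-03) and of 1.13 ± 0.31 in the Sox2 line (adjusted p = 0.0138). On counts thinned to the lowest total the adjusted p was 0.0642 and 0.224, and with limma on the rlog values the log2 changes of 0.90 and 0.86 were under the fold minimum. In Oct4 KO late ICMs Smad5 was at 1.4, 8.32 and 13 CPM (lowest, median, highest) against 13.4, 20 and 26.6 CPM in Ctrl, and the embryos of the groups did not overlap. Its log2 fold change was -1.34 ± 0.35 (adjusted p = 1.60e-03). Smad1 in the same ICMs was at 0, 0.582 and 3.79 CPM against 0, 6.77 and 12 CPM, a log2 fold change of -2.48 ± 0.63 (adjusted p = 1.15e-03) that rests on 6 UMIs in the KO and 36 in the Ctrl embryos. With limma on the deposited rlog values the adjusted p was 1.77e-03 for Smad1 and 2.20e-04 for Smad5, but their log2 fold changes of -0.82 and -0.99 were under the fold minimum. In Sox2 KO late ICMs Smad5 was at 5.05, 15.8 and 19.6 CPM against 10.8, 23.5 and 34.3 CPM, a log2 difference of -0.71 ± 0.31 (adjusted p = 0.118). Neither gene's KO effect was shown to differ between the lines, with interaction values of -2.03 ± 0.79 for Smad1 (adjusted p = 0.0919) and -0.63 ± 0.47 for Smad5 (adjusted p = 0.472) at the late stage. In Oct4 KO morulae Smad5 was at 0.964, 1.42 and 4.32 CPM against 2.13, 4.69 and 11.2 CPM, a log2 difference of -1.38 ± 0.45 that did not pass the edgeR test (adjusted p = 0.108).

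Smad6, the inhibitory SMAD, was scarce and mostly a late ICM gene. It gave 16 UMIs over the 8 Oct4 Ctrl late ICMs and 1 UMI over the early ones, and the Sox2 Ctrl ICMs gave the same 16 and 1. In Oct4 MWT late ICMs it gave 15 UMIs. In the KO late ICMs of either line it gave 1 UMI. That is 5.56% of the Ctrl level in the Oct4 line (95% interval 0.133% to 35.8%) and 6.64% in the Sox2 line (0.158% to 42.7%), for counting error only. In a fit with no filter on low counts Smad6 was called lower in both late KO groups, with a log2 fold change of -3.27 (adjusted p = 1.73e-03) in the Oct4 line and -2.96 (adjusted p = 0.0114) in the Sox2 line.

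Id3, a target gene, fell in the KO ICMs of both lines at both stages. In Oct4 Ctrl early ICMs it was at 87.5, 153 and 214 CPM (lowest, median, highest) and in KO early ICMs at 8.89, 33.5 and 45.3 CPM. All 8 KO embryos lay below all 8 Ctrl embryos, as did 2.8% of all genes, and the log2 fold change was -2.21 ± 0.32 (edgeR adjusted p = 4.25e-08). At the late stage Ctrl ICMs were at 189, 343 and 465 CPM and KO ICMs at 15.4, 31.8 and 54.9 CPM, a 10.2-fold lower level (log2 -3.35 ± 0.32, adjusted p = 8.33e-15). Bmp4 and Smad5 were the other members without overlap there, 3 of 8 members against 3.35% of all genes. The Sox2 line moved the same way. Its early ICMs were at 204, 248 and 402 CPM in Ctrl and at 43.7, 66.2 and 125 CPM in KO, with a log2 fold change of -1.87 ± 0.29 (adjusted p = 1.95e-06). Its late ICMs were at 359, 459 and 574 CPM in Ctrl and at 47.9, 77.5 and 93 CPM in KO, a 6.01-fold lower level (log2 -2.59 ± 0.30, adjusted p = 6.13e-11). Neither Sox2 comparison had overlapping embryos, against 0.74% and 1.63% of all genes. In morulae Id3 ranges of KO and Ctrl overlapped in both lines, with log2 differences of -0.23 ± 0.27 and 0.03 ± 0.28.

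In the Oct4 Ctrl embryos Id3 fell from a median of 385 CPM in morulae to 153 CPM in early ICMs (log2 -1.72 ± 0.28, adjusted p = 2.14e-07) and rose to 343 CPM in late ICMs (1.27 ± 0.28, adjusted p = 1.83e-04). In the Sox2 line the medians were 149, 248 and 459 CPM, and neither step was called (adjusted p = 0.244 and 0.0758). The difference between the lines' courses was not tested. The KO effect on Id3 was not shown to differ between lines (interaction -0.34 ± 0.43 and -0.77 ± 0.43, adjusted p = 0.705 and 0.293 at the early and late stage).

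**Figure D3:**
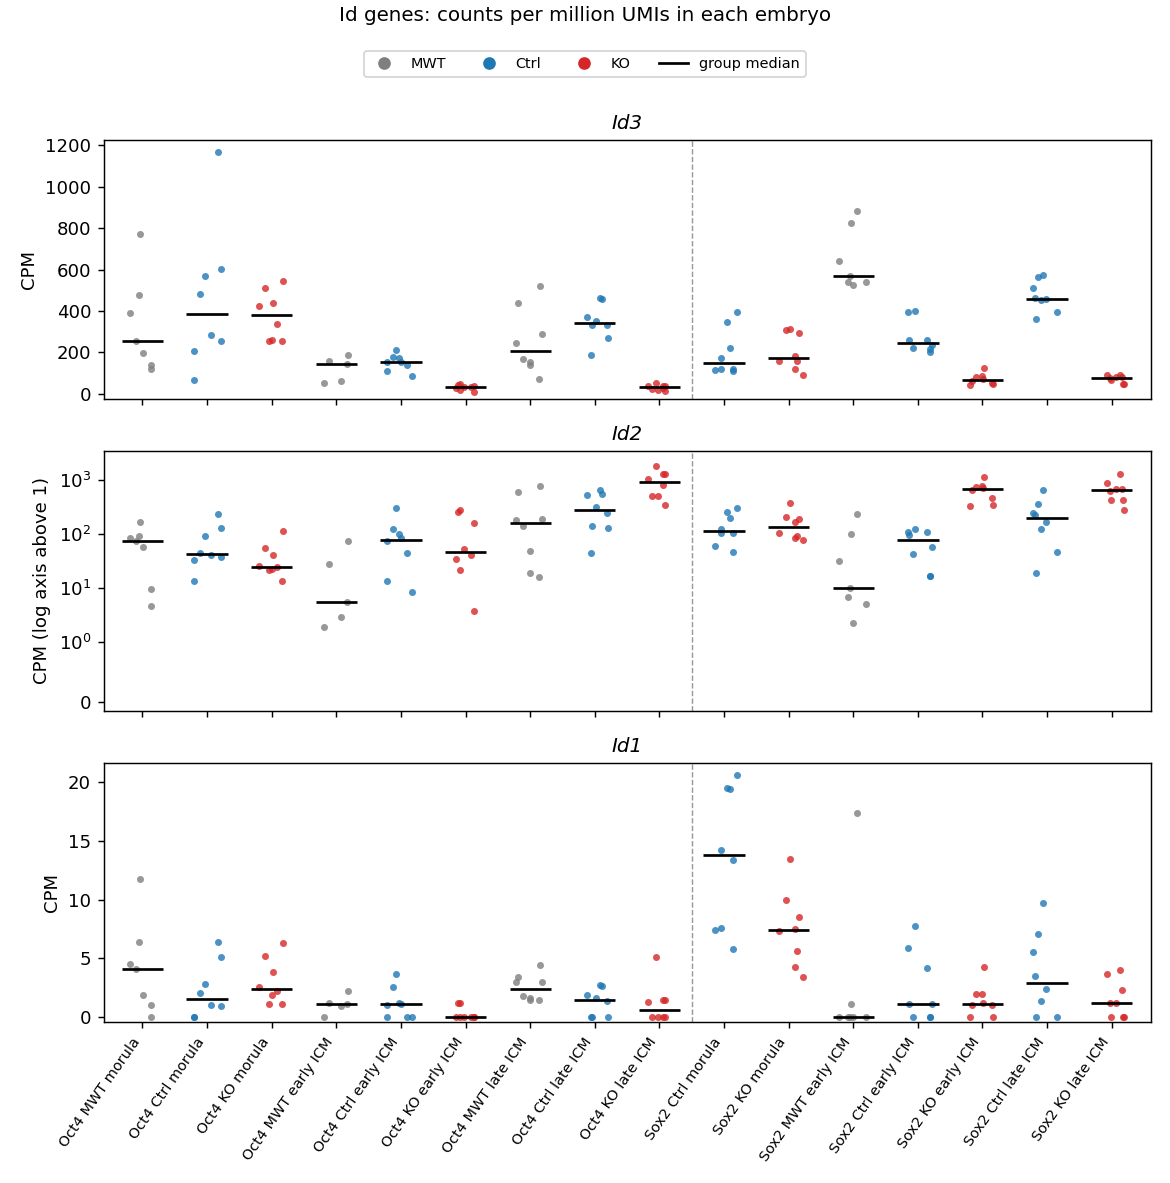
CPM (y axis) of Id3, Id2 and Id1 in each embryo, by line, genotype and stage (x axis). Points are embryos, bars are group medians, and the Id2 axis is logarithmic above 1 CPM. Id3 of the KO ICMs lies below every Ctrl ICM of its line and stage, and Id2 of the Sox2 KO early ICMs lies above every Ctrl early ICM of that line.

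Id2 rose in the Sox2 KO ICMs of both stages and in the late Oct4 KO ICMs. In Sox2 KO early ICMs it was at 326, 689 and 1121 CPM (lowest, median, highest) against 16.5, 76.5 and 122.95 CPM in Ctrl. All 8 KO embryos lay above all 8 Ctrl embryos, as did 0.491% of all genes, and the level was 9.50-fold higher (log2 3.25 ± 0.54, adjusted p = 8.38e-06). In Oct4 KO early ICMs Id2 was at 3.67, 46.9 and 275 CPM against 8.51, 79.1 and 309 CPM in Ctrl, a log2 difference of 0.22 ± 0.52 (adjusted p = 0.822). The early KO effect on Id2 differed between the lines by -3.02 ± 0.74 on the log2 scale, Oct4 minus Sox2 (interaction, adjusted p = 3.85e-03, against 5.52% of all genes called). Late Oct4 KO ICMs were at 341, 936 and 1826 CPM against 44.2, 281 and 667 CPM, a log2 fold change of 1.67 ± 0.50 (adjusted p = 5.74e-03) with 5 of 8 KO embryos above all Ctrl embryos. Late Sox2 KO ICMs were at 275, 653 and 1316 CPM against 19, 195 and 670 CPM, a log2 fold change of 1.61 ± 0.50 (adjusted p = 0.0179) with 4 of 8 above all Ctrl embryos. Without KO embryo 1-1 the Sox2 late value was 1.39 with an adjusted p of 0.0556. At this stage the lines differed by 0.06 ± 0.69 (adjusted p = 0.994). In the Ctrl embryos Id2 rose from early to late ICMs, by a log2 fold change of 1.8 ± 0.52 in the Oct4 line (adjusted p = 4.33e-03) and of 1.68 ± 0.52 in the Sox2 line (adjusted p = 0.0332). The Sox2 step lost its call in a fit that also held the MWT embryos (adjusted p = 0.0663).

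Trophectoderm markers were read in the same ICMs. The summed level of 15 such markers, Id2 not among them, was 1990 to 4486 CPM in Oct4 KO late ICMs against 407 to 1518 CPM in Ctrl, and 1084 to 1967 CPM against 531 to 1874 CPM at the early stage. In the Sox2 line it was 695 to 2455 CPM in KO early ICMs against 249 to 737 CPM in Ctrl, and 744 to 2250 CPM against 339 to 3340 CPM at the late stage. No marker of the list was at 0 UMIs over any of these groups. In Oct4 KO early ICMs 4 of 15 markers were called higher and 1 lower, against 4.77% and 6.11% of all genes. In Oct4 KO late ICMs 11 were called higher and 0 lower, against 9.25% and 8.85%. In Sox2 KO early ICMs 5 were higher and 1 lower, against 1.57% and 1.69%, and in late ones 4 were higher and 1 lower, against 3.34% and 3.61%. Of 11 tested primitive endoderm markers, 2 were higher and 2 lower in Oct4 KO early ICMs, 2 higher and 5 lower in Oct4 KO late ICMs, 1 higher in Sox2 KO early ICMs and 1 lower in Sox2 KO late ICMs. The Sox2 KO early ICM with the lowest sum, 695 CPM, held Id2 at 755 CPM, and 3 Ctrl early ICMs of that line had a sum above 695 CPM with Id2 at 42.6 to 122.95 CPM. In Oct4 KO early ICMs the lowest sum was 1084 CPM and Id2 there was at 21.3 CPM. The summed level of 13 primitive endoderm markers had a median of 1306 CPM in Oct4 KO early ICMs against 905 CPM in Ctrl. At the late stage it was 1439 CPM against 706 CPM. In the Sox2 line it was 921 CPM against 888 CPM in early and 846 CPM against 684 CPM in late ICMs. The part of trophectoderm cells in the Id2 and Id3 results was not tested.

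Across embryos, with each group centred on its own mean, Id2 and the summed trophectoderm markers correlated with a Pearson r of 0.613 and a Spearman rho of 0.664 (log2 of CPM plus 1, n = 68 embryos of the Oct4 line and 55 of the Sox2 line, permutation adjusted p = 6e-05 for each over 6 pairs added after seeing the data, from the smallest p that 100000 permutations can give). The r was 0.604 in the Oct4 line alone, 0.655 in the Sox2 line alone and 0.607 without the 2 embryos farthest out, and it was positive in 15 of 16 groups. Bmp4 and Id2 had an r of 0.241 and a rho of 0.30 (permutation adjusted p = 0.0394 and 0.00358). That r was 0.344 in the Oct4 line and 0.105 in the Sox2 line, where it did not pass (adjusted p = 0.582). Without the 2 embryos farthest out it was 0.280, and with a pseudocount of 5 CPM it was 0.219 and did not pass (adjusted p = 0.0836). Bmp4 and Smad6 had an r of 0.189 and a rho of 0.213 (permutation adjusted p = 0.0994 and 0.0489), and the r passed with a pseudocount of 0.1 CPM (0.215, adjusted p = 0.0406) and with depth regressed out (0.217, adjusted p = 0.0468). Bmp4 and Id3 had an r of 0.065 and a rho of 0.070 (permutation adjusted p = 0.479 and 0.502). Id2 and Id3 had an r of -0.261 and a rho of -0.234 among 6 pairs of Id genes and Smad6 (permutation adjusted p = 0.0538 and 0.0979), and -0.254 without the 2 embryos farthest out. None of those 6 pairs passed. Id3 and the trophectoderm markers, another of the added pairs, had an r of -0.190 and a rho of -0.298 (permutation adjusted p = 0.0416 and 0.00198), negative in 12 of 16 groups. That r was -0.291 in the Oct4 line (permutation adjusted p = 0.0438) and -0.055 in the Sox2 line, where it did not pass (0.582), and without the 2 embryos farthest out it was -0.176 and did not pass either (0.0888), nor did it with a pseudocount of 5 CPM (-0.192, adjusted p = 0.0625). All values of an embryo share its library and depth.

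**Figure D4:**
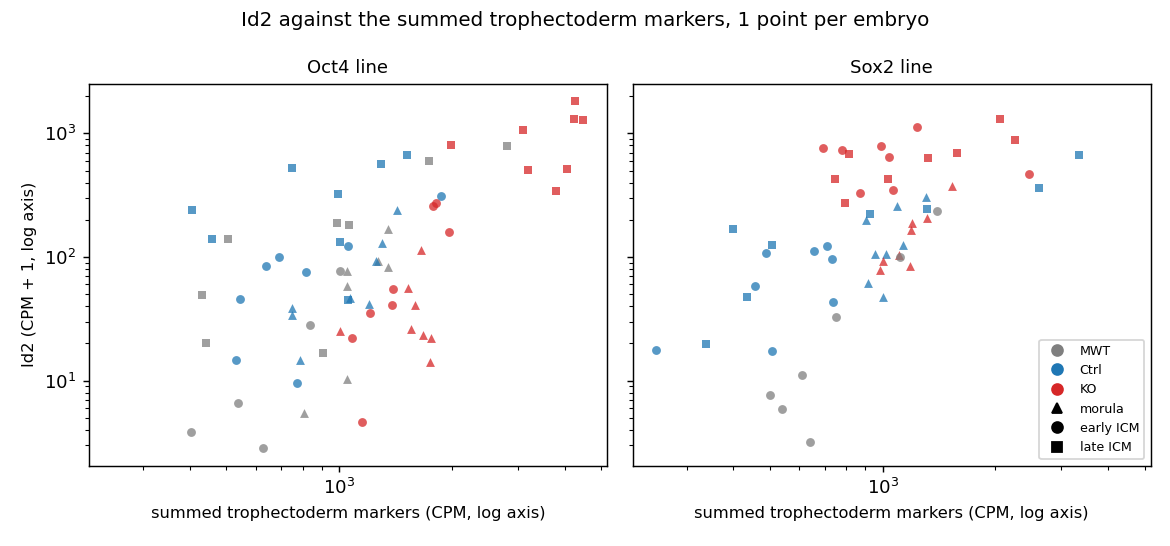
Id2 (CPM plus 1, y axis) against the summed CPM of 15 trophectoderm markers (x axis), both on log axes, with 1 point per embryo and the lines in separate panels. Colour gives the genotype and shape the stage. Id2 tends to be higher where the marker sum is higher in both lines. Of the Sox2 KO early ICMs (red circles, right) 1 has a marker sum within the range of the Ctrl early ICMs, and the other 7 lie above that range.

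Id1 was low and called in 1 comparison. It never exceeded 26 UMIs in an embryo. In the Sox2 Ctrl line it fell from 5.82, 13.8 and 20.6 CPM (lowest, median, highest) in morulae to 0, 1.10 and 7.74 CPM in early ICMs, a log2 fold change of -2.47 ± 0.52 (adjusted p = 3.24e-05) with 6 of 8 early ICMs below all morulae. In Oct4 Ctrl morulae its level was 0, 1.56 and 6.36 CPM. Its KO effects in ICMs had log2 values of -1.56 to -0.07, none of them called. The 95% intervals of Id1 ran from -3.47 to 0.35 and from -1.77 to 1.62 in Oct4 KO early and late ICMs, the late one from 7 UMIs in each group, and from -1.94 to 0.71 and from -2.39 to 0.19 in the Sox2 KO ones. Whether the KO effects on Id1 and Id3 differ was not tested.

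In the Ctrl embryos as a whole 2 of 8 members were called from morula to early ICM in each line. That is against 29% of all genes in the Oct4 line and 31.9% in the Sox2 line. This step also holds the culture with inhibitor and immunosurgery. From early to late ICM 4 of 8 members were called against 15.6% in the Oct4 line and 2 of 8 against 2.9% in the Sox2 line. The KO effect itself was compared between early and late ICMs for all 8 members. By edgeR 0 of 8 were called in the Oct4 line, where 3.11% of all genes were and 2 members had an unadjusted p under 0.05, or in the Sox2 line, where 0.0427% were and 1 member did. DESeq2 called 0 in both, while limma on the deposited rlog values called Bmp4 in the Oct4 line.

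Ctrl embryos also lacked maternal Oct4 or Sox2 and had 1 intact allele, so they were set against MWT embryos in a fit of all Ctrl, KO and MWT embryos over 13923 genes, in which all 9 members could be tested. In Oct4 morulae, early ICMs and late ICMs 0 of 9 members were called, against 0.0646%, 0.373% and 0.797% of all genes. At an unadjusted p under 0.05 there were 0, 1 and 0 members, and DESeq2 and limma called 0 in each. In Sox2 early ICMs Bmp4 and Id3 were lower in Ctrl, 2 of 9 members against 1.17% of all genes. Id3 was at 526.4, 572 and 883 CPM in the 7 MWT ICMs (lowest, median, highest), above all 8 Ctrl ICMs, as 0.531% of all genes were (log2 -1.25 ± 0.31, adjusted p = 5.43e-03). Bmp4 was at 30.4, 66.1 and 334 CPM in MWT and had a log2 fold change of -1.53 ± 0.41 (adjusted p = 0.0122). Without MWT embryo 10, the one at 334 CPM, the value was -0.76 (adjusted p = 0.302), and DESeq2 gave an adjusted p of 0.101. Other levels differed between these groups as well. Summed primitive endoderm markers were at 1062 to 1559 CPM in MWT and 284 to 992 CPM in Ctrl, and Pou5f1 was at 97.7 to 133 CPM in MWT and 40.5 to 88.6 CPM in Ctrl, both without overlap. Trophectoderm marker sums were 499.8 to 1396 CPM in MWT and 249 to 737 CPM in Ctrl. The part of these differences in the Bmp4 and Id3 results was not tested.

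The wider pathway was described through 65 other genes listed by role, of which 61 had a row and 39 could be tested. In Oct4 KO early ICMs 3 of 39 rose and 3 fell, against 4.77% and 6.11% of all genes, and in late ICMs 5 rose and 2 fell, against 9.25% and 8.85%. In Sox2 KO early ICMs 2 rose and 1 fell, against 1.57% and 1.69%, and in late ICMs 3 rose and 1 fell, against 3.34% and 3.61%. The list was not tested against all genes, and the counts are a description. Their median log2 fold changes were 0.06, 0.23, 0.21 and 0.05, against 0.01, -0.01, -0.01 and 0.00 for all genes. Bambi, a decoy receptor that blunts the signal and is itself a BMP target, fell from a median of 35.4 to 4.47 CPM in Oct4 KO early ICMs (log2 -2.73 ± 0.38, adjusted p = 1.14e-08) and from 44.9 to 12.8 CPM in late ones (-1.63 ± 0.37, adjusted p = 2.43e-04). Fstl3, a secreted binder of activins, rose in Oct4 KO early ICMs (2.18 ± 0.30, adjusted p = 1.14e-08), Oct4 KO late ICMs (2.17 ± 0.37, adjusted p = 1.03e-06) and Sox2 KO late ICMs (1.85 ± 0.33, adjusted p = 8.90e-06). Smad7, the other inhibitory SMAD, rose in the early KO ICMs of both lines, by 1.21 ± 0.31 (adjusted p = 2.25e-03) and 1.23 ± 0.30 (adjusted p = 4.11e-03), and in Oct4 KO late ICMs by 1.06 ± 0.30 (adjusted p = 3.96e-03). Ppm1a, a phosphatase of receptor-activated SMADs, fell in the early KO ICMs of the Oct4 and Sox2 lines, by 1.35 and 1.21 on the log2 scale (adjusted p = 2.81e-07 and 2.33e-05). Usp9x, a deubiquitinase that acts on SMAD4, fell in the late KO ICMs of both lines (log2 -1.46 ± 0.17 and -1.05 ± 0.17) and in Oct4 KO early ICMs (-1.04 ± 0.17), and Smurf1, a ubiquitin ligase for SMADs, rose in Oct4 KO late ICMs (1.11 ± 0.20, adjusted p = 5.25e-06). None of the 3 tested E protein genes was called in any KO comparison of ICMs.

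By group means of log2 (CPM plus 1) over the 16 groups, the genes most like each member were found among genes reaching 20 CPM in a group. For Bmp4 they were Mbtps1 (Pearson r 0.941), Kirrel (0.939) and Sh3bp4 (0.935). For Id2 they were Cited2 (0.919), Mbp (0.882) and Dab2ip (0.882), and for Id3 Fasn (0.890), Llgl1 (0.875) and Ndufaf4 (0.865). For Id1 they were Cyb5r4 (0.935), Snap91 (0.921) and Zc3h8 (0.897). These are descriptions over 16 points that share lines and stages.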

How the data were processed

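RNA-seq was made from single embryos (48 Ctrl, 48 KO and 27 MWT). The authors took the unique molecular identifier of each read with UMI-tools, trimmed with Cutadapt, aligned single-end 75 base reads to mm10 with TopHat2 and the GENCODE annotation, assigned them with featureCounts and counted unique transcripts with TRUmiCount. The deposited counts are whole UMI counts per gene, and the deposited log2 values are their rlog transform by DESeq2. Strand use is not given in the sources used here. The ERCC spike-ins were not used here.

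UMI counts were tested with edgeR 4.0.16 in R 4.3.3 (quasi-likelihood, TMM scaling), with the groups in 1 fit, on genes detected in at least a share of 0.5 of the embryos of a stage. The 96 Ctrl and KO embryos gave 14053 genes, and the embryos of all groups gave 13923 for comparisons with MWT. Calls required a Benjamini-Hochberg adjusted p under 0.05 and a move of 1 or more on the log2 scale. CPM values divide by the total of the library and are not TMM scaled. The standard error is the fold change over the root of F. Intervals of UMI ratios and floors (3 UMIs over a group) cover counting error only, while intervals of log2 values come from the fit and include the spread between embryos. On simulated counts of the Oct4 early ICM comparison over 14053 genes, 99% of log2 changes of 2 and 100% of 3 were recovered. The changed genes were all drawn from those with more UMIs. The recovery therefore does not cover scarce members such as Bmp4, Smad1, Smad5 and Id1.

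Nothing says which embryos shared a litter, so p-values measure the spread between embryos. No 2 libraries of a group were duplicates: the lowest chi-square per gene over 416 pairs was 2.63. Embryo correlations used 100000 permutations within groups. Alternatives were DESeq2 1.42.0, limma 3.58.1 on the rlog values, other scalings and filters, thinned counts, blocks and leaving out embryos. All 9 members, Pou5f1, Sox2 and, per ICM comparison, up to 4 called pathway genes of at least 20 CPM are named, with the 3 most alike genes for Bmp4 and the Id genes. Smad7 in Oct4 late and Usp9x in Oct4 early ICMs fell outside this rule and were added after their values were seen. The members and gene lists were chosen with earlier results of these data known. The labels' title was used where the Oct4 MWT stage labels differ.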

Additional observations from a re-analysis of the deposited data

Results flagged for a closer look

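In 118 sets of values of 1 gene in 1 group, the highest embryo stood apart from the rest in 10 by Dixon's criterion, which chance meets in about 1 in 20 groups. Bmp4 reached 334 CPM in Sox2 MWT early ICM 10, where the next embryo had 87.9 CPM. Id2 reached 309 CPM in Oct4 Ctrl early ICM 9 (next 122.8 CPM), 114 CPM in Oct4 KO morula 7 (next 54.9 CPM), 377 CPM in Sox2 KO morula 19 (next 207 CPM) and 237 CPM in Sox2 MWT early ICM 15 (next 99.2 CPM). The summed trophectoderm markers of these embryos were also the highest of the group in Oct4 Ctrl early ICM 9 (1874 CPM), Sox2 KO morula 19 (1533 CPM) and Sox2 MWT early ICM 15 (1396 CPM), but not in Oct4 KO morula 7 (1659 CPM, where the highest was 1762 CPM). Id1 reached 17.4 CPM from 12 UMIs in Sox2 MWT early ICM 9, 5.14 CPM in Oct4 KO late ICM 2-7 and 4.28 CPM in Sox2 KO early ICM 10, the last pair from 4 UMIs each. Smad1 reached 10.9 CPM in Sox2 Ctrl early ICM 4 and Smad6 reached 7.83 CPM in Oct4 MWT late ICM 15.

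The KO effect differed between the lines by the interaction test for Id2 at the early stage, by -3.02 on the log2 scale (Oct4 minus Sox2), and for Bmp4 at the late stage, by -4.34 (-4.49 to -1.24 over the alternatives).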

How the results depend on the processing

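Over the alternatives, 222 counts of called members stayed within 1.5 times the reported count and 10 did not, and no member's called value changed sign. On counts thinned to the lowest total, 0 members in place of 1 differed between the lines' late KO effects, and 1 in place of 2 was called from early to late Sox2 Ctrl ICMs. With limma on the rlog values this last count was 0, the Oct4 late KO count was 3 in place of 5 (Smad1 and Smad5 fell under the fold minimum), and the late minus early Oct4 KO effect gave 1 in place of 0. DESeq2 gave 1 in place of 2 for Sox2 Ctrl against MWT. Without 1 Ctrl or KO embryo in turn, the counts were 2 to 2 and 5 to 5 for Oct4 early and late KO. They were 3 to 3 and 2 to 3 for Sox2. For Sox2 Ctrl against MWT only MWT embryos were left out, with counts of 1 to 2 (1 without MWT embryo 10). The r of Id2 and Id3 passed with a pseudocount of 0.1 CPM (-0.266) and with depth regressed out (-0.264). The cause of these moves was not tested. The replicate labels of late Ctrl and KO ICMs begin with a set number, 1 or 2, and the titles do not say what it marks. With the set as a block, every member called in the late KO comparisons kept its call. In Oct4 Ctrl late ICMs Id2 was at 44.2 to 322 CPM in set 1 and 521 to 667 CPM in set 2. In Oct4 KO late ICMs Smad5 was at 1.4 to 7.8 CPM in set 1 and 8.84 to 13 CPM in set 2.

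Deviations of embryos with the same replicate number in KO and Ctrl correlated at -0.074 to 0.195. At most 4 numbers were shared per comparison, too few to decide whether they pair the embryos. A replicate block on these embryos moved the genes called from 157 to 282 in Oct4 morulae and from 864 to 842 in early ICMs. In the Sox2 line it moved them from 227 to 420 in early and from 321 to 639 in late ICMs. With a replicate block on the embryos with shared numbers, 1 member in place of 2 was called in Oct4 early ICMs, and 1 without the block, on fewer embryos. The call lost was that of Bmp4 (log2 -3.63 and -3.76). In Sox2 late ICMs the embryos with shared numbers gave 1 in place of 3 without the block, with Id2 at 2.25 (adjusted p = 0.0558) and Bmp4 at -1.40 (adjusted p = 0.0836) on the log2 scale from fewer embryos. With the block Bmp4, Id2 and Id3 all kept their calls there.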
